A study of Arabidopsis thaliana with 6 samples.

Results

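Transcript levels in sorted lateral root cap cells of Arabidopsis thaliana were compared between seedlings given dexamethasone for 4 h and untreated seedlings. The comparison used 4 of the 6 arrays of the study: those titled as 4 h of treatment (2 replicates) and those titled as untreated (2 replicates). The remaining 2 arrays, from 1 h of treatment, were not compared. They entered the quantile normalization, the mean level of each probe set over the 6 arrays and the estimate of the spread. All 22746 probe sets that are not controls were followed, each an intensity from an Affymetrix ATH1 array.

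Every seedling was of the C24 ecotype, was grown for 5 days on standard medium and carried J2632-UAS::ARR1ΔDDK-GR, the untreated ones included. J2632 is an enhancer trap line whose activator switches on both the fluorescent marker used for the sort and the ARR1 fusion in the lateral root cap. The labels call the replicates biological without saying what was repeated, so p-values measure the spread between these arrays. No group lacked the fusion, so an effect of the ARR1 protein, of dexamethasone itself and of the elapsed hours cannot be told apart.

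ARR1 is a type-B response regulator, a transcription factor that carries the cytokinin signal to its target genes. In ARR1ΔDDK the receiver domain that holds the factor inactive without cytokinin is missing, and the glucocorticoid receptor part (GR) holds the fusion in the cytoplasm until dexamethasone binds. The lateral root cap is the sheath of short-lived cells around the growing root tip, and cytokinin there is known to act on the breakdown and transport of auxin. No probe set carries ARR1 alone in the annotation used here, so the level of the fusion itself was not analysed here.

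Between 65.2% and 67.8% of the probe sets exceeded background on the 4 h and untreated arrays, where background is the 95th percentile of 27 bacterial control probe sets. Levels are log2(intensity + 16) after quantile normalization, and a difference is the 4 h mean minus the untreated mean on that scale. The 4 h arrays correlated with each other at 0.972 and the untreated arrays at 0.957, across probe sets, against 0.953 to 0.962 between a 4 h and an untreated array. Of 55 marker genes for root cell types and for leaf or shoot, 8 were measured. Among the 8 were 2 of the root cap, and no marker of the stele was measured. The root cap marker AT1G65570 had levels of 9.96 and 9.50 at 4 h, against 9.33 and 9.60 in untreated cells. The carboxypeptidase-like scpl48, also a root cap marker, had levels of 11.21 and 11.38 at 4 h, against 11.84 and 11.99 in untreated cells (unadjusted p = 0.0392, adjusted p = 0.518, limma). Both exceeded background on all 4 arrays, whereas EXPA7 of root hairs, AGL42 of the quiescent centre and AT1G62500 of the cortex exceeded it on none. EXPA18 of root hairs exceeded it on 1 array, GSO1 of the endodermis on 3, and the leaf gene RCA on all 4, at 5.95 and 6.45 at 4 h, against 5.81 and 5.73 in untreated cells. In a sorted sample, fewer cells of one type and less RNA per cell cannot be told apart.

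After 4 h the largest shift was a loss: the signal of the probe set 253534_at, which is not listed with a gene in the annotation used here, lay 25.7-fold below that of untreated cells. Its levels were 6.02 and 6.61 at 4 h, against 10.99 and 11.01 in untreated cells. The groups are far apart, and the 4 h arrays differ from each other more than the untreated ones do. The log2 difference was -4.69 (SE 0.26, adjusted p = 0.0227, limma). It was the only probe set past an adjusted p of 0.05, that is 0.00440% of those tested, and without any 1 of the 6 arrays the adjusted p rose to between 0.124 and 0.465. A further unlisted probe set, 260387_at, singled out after its values were seen, had levels of 6.20 and 6.42 at 4 h, against 11.26 and 9.92 in untreated cells (difference -4.28, SE 0.44, adjusted p = 0.113, limma). There it is the untreated arrays that lie apart. In the alternative fit described below, 260387_at passed the threshold (adjusted p = 0.00424, limma). With only the 4 arrays compared, its adjusted p in that fit was 0.0432 (limma).

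At an unadjusted p under 0.05 there were 2066 probe sets (9.08%), of which 1117 (4.91%) were higher and 949 (4.17%) lower at 4 h. The spread between replicates depended on the signal: the median residual SD was 0.44 in the dimmest of 3 equal classes of probe sets by mean level, 0.29 in the middle class and 0.20 in the brightest. The fit above gives every probe set the same prior variance. An alternative fit, in which the prior variance follows the signal level, called 123 probe sets (0.541%) at an adjusted p under 0.05: 88 higher (0.387%) and 35 lower (0.154%) at 4 h. Of these calls 116 lay in the brightest class, 7 in the middle class and 0 in the dimmest. In what follows, "called", "rose" and "fell" refer to this alternative fit, its SE and its adjusted p. Its count depends on the arrays used: without either of the 4 h arrays 1 call was left (253534_at), without either of the 1 h arrays 17, with only the 4 arrays compared 18, and without untreated replicate 1 and replicate 2 it was 227 and 365. The differences of all 123 kept their sign under each of these. That could hardly have come out otherwise, since the 123 were called for differences large against their spread.

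**Figure D1:**
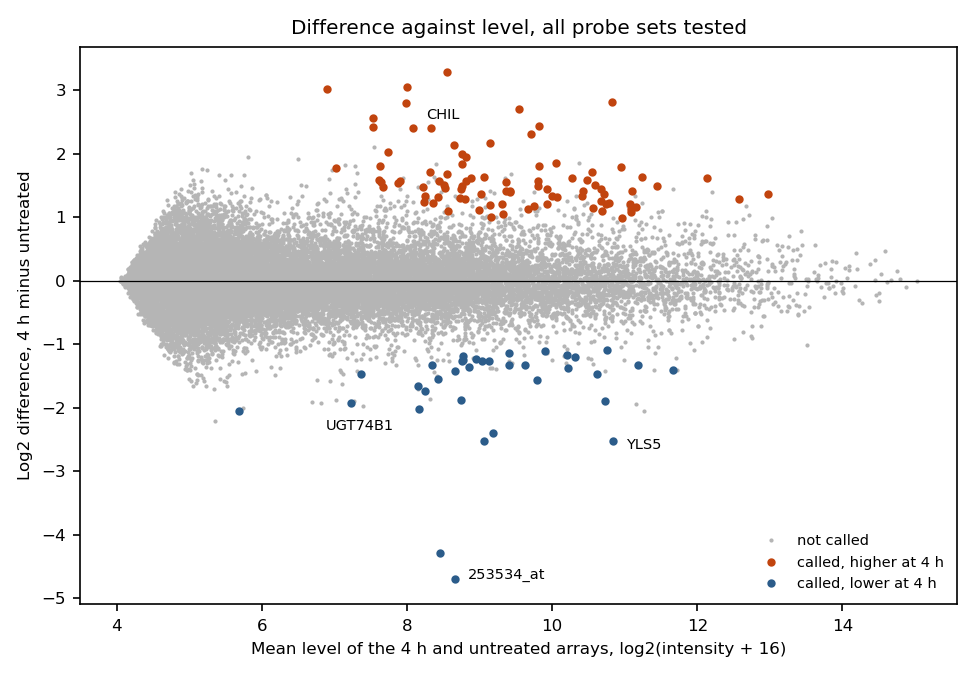
Log2 difference, 4 h minus untreated (vertical axis), against the mean level of the 4 arrays on the log2(intensity + 16) scale (horizontal axis) for 22746 probe sets; coloured points are the 123 called when the prior variance depends on signal, 88 higher (red) and 35 lower (blue). Most calls sit at high levels, and 253534_at lies lowest at -4.69.

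The called rises ranged from 0.99 to 3.28 with a median of 1.49, and the called falls from -1.09 to -4.69 with a median of -1.40. Of the 123, 121 exceeded background on all 4 arrays. Only 60 carry a single gene in the annotation (42 higher, 18 lower), 1 carries several and 62 are not listed. Of the 60 genes, 12 have a symbol: 6 rose and 6 fell. The other genes are known here by locus alone, so no function is given for them.

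Among the 6 genes with a symbol that rose, 1 belongs to flavonoid synthesis, 2 to tetrapyrrole synthesis, 1 to calcium sensing, 1 to cold and drought protection and 1 to the cell wall. CHIL, a chalcone isomerase-like protein that promotes flavonoid production, had levels of 9.29 and 9.30 at 4 h, against 7.16 and 6.61 in untreated cells. The groups did not overlap, as could be foreseen for a gene called for a difference large against its spread. The 4 h arrays lay closer together than the untreated ones, as they did over all probe sets (median gaps 0.23 and 0.35). CHIL was 5.31-fold higher (log2 difference 2.41, SE 0.33, adjusted p = 0.0256, from 0.00819 to 0.624 over 15 changes of setting, limma).

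Both tetrapyrrole genes act early in the pathway that leads to haem and chlorophyll. hemb2, named for porphobilinogen synthase, had levels of 12.02 and 12.11 at 4 h, against 9.96 and 10.88 in untreated cells (difference 1.64, SE 0.27, adjusted p = 0.0474, range 0.00416 to 0.698, limma). HEMA2, a glutamyl-tRNA reductase, had levels of 9.71 and 9.77 at 4 h, against 8.47 and 8.62 in untreated cells (difference 1.19, SE 0.18, adjusted p = 0.0335, range 0.0199 to 0.698, limma). Each gene was higher on both 4 h arrays than on either untreated array, as were 20.0% of all probe sets. For hemb2 the untreated arrays lay far apart.

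The calmodulin-like calcium sensor CML38 averaged 11.08 ± 0.05 at 4 h and 9.75 ± 0.36 in untreated cells (SD, n = 2 each; difference 1.34, SE 0.20, adjusted p = 0.0307, range 0.00597 to 0.649, limma). The dehydrin COR47, a protein that accumulates in cold and drought, had levels of 11.67 and 11.79 at 4 h, against 10.42 and 10.71 in untreated cells (difference 1.16, SE 0.18, adjusted p = 0.0367, range 0.0167 to 0.717, limma). The expansin-like EXLA2 had levels of 9.59 and 9.52 at 4 h, against 8.53 and 8.34 in untreated cells (difference 1.12, SE 0.17, adjusted p = 0.0329, range 0.0199 to 0.680, limma). In all 3 genes the 4 h arrays were closer to each other than the untreated arrays were. The same held over all probe sets, with median gaps between replicates of 0.23 at 4 h and 0.35 in untreated cells.

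The 6 genes with a symbol that fell include transcription factors, a defence protein and enzymes of glucosinolate and sugar metabolism. YLS5, a DJ-1 family gene named for its expression in yellowing leaves, had levels of 9.47 and 9.69 at 4 h, against 12.15 and 12.05 in untreated cells. All 4 arrays were well above background and the replicates agreed. YLS5 was 5.73-fold lower (log2 difference -2.52, SE 0.17, adjusted p = 0.00131, range 0.000461 to 0.143, limma), with an adjusted p of 0.0816 under a single prior variance.

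UGT74B1, the glucosyltransferase that adds the sugar of glucosinolates, had levels of 7.09 and 7.22 at 4 h, against 9.71 and 8.64 in untreated cells (difference -2.02, SE 0.31, adjusted p = 0.0337, range 0.00397 to 0.628, limma). HAT2, a homeodomain-leucine zipper factor induced by auxin, had levels of 8.85 and 8.63 at 4 h, against 10.10 and 10.05 in untreated cells (difference -1.33, SE 0.16, adjusted p = 0.0209, range 0.0124 to 0.614, limma). WRKY22, a factor of the immune response, had levels of 9.60 and 9.46 at 4 h, against 11.18 and 10.62 in untreated cells (difference -1.37, SE 0.23, adjusted p = 0.0441, range 0.0129 to 0.717, limma). The untreated arrays were far apart for UGT74B1 and WRKY22, with replicate 1 the higher in both, and close together for HAT2.

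The osmotin-like OSM34 had levels of 7.72 and 7.63 at 4 h, against 9.18 and 8.82 in untreated cells (difference -1.33, SE 0.19, adjusted p = 0.0293, range 0.0131 to 0.678, limma). cwINV6, a fructan-cleaving enzyme of the cell wall invertase family, had levels of 8.08 and 8.17 at 4 h, against 9.30 and 9.50 in untreated cells (difference -1.27, SE 0.17, adjusted p = 0.0249, range 0.0140 to 0.614, limma). For both, the gap between the groups was several times the gap between replicates. YLS5 stayed called in 13 of 15 changes of setting and CHIL in 11, WRKY22 in 7 and the other 9 genes in 9 or 10. With only the 4 arrays compared, CHIL and YLS5 were the 2 of the 12 still called.

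**Figure D2:**
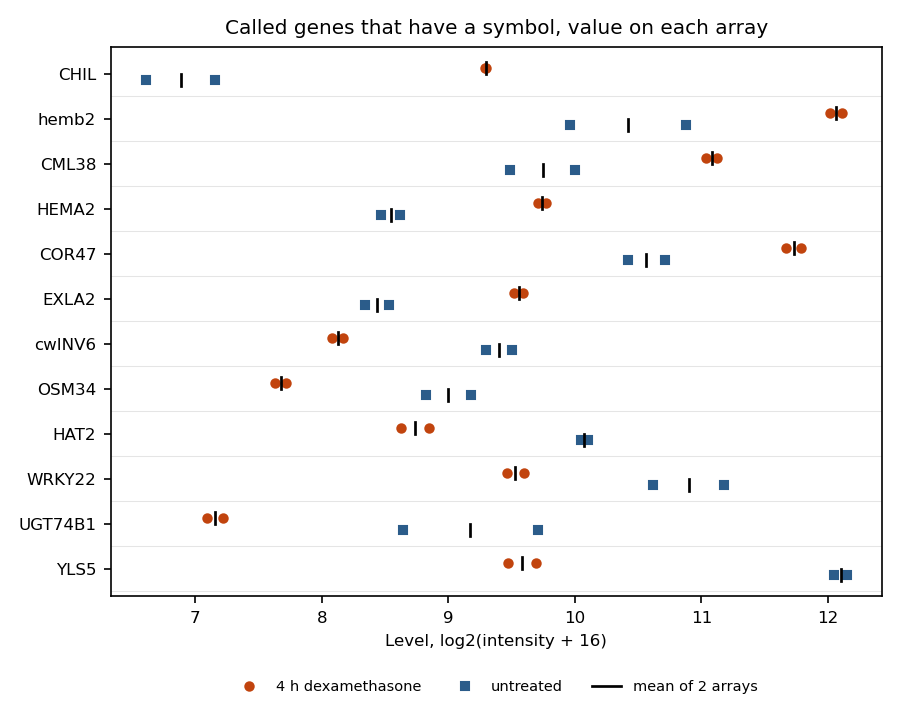
Level on each array, log2(intensity + 16), of the 12 called genes that have a symbol; red circles are the 4 h arrays, blue squares the untreated arrays and black bars the mean of 2 arrays. The upper 6 genes rose and the lower 6 fell. In none do the groups overlap, as could be foreseen for genes called for differences large against their spread. Of all probe sets, 20.0% were higher on both 4 h arrays than on either untreated array and 20.6% lower.

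The 15 largest named rises and the 15 largest named falls were taken among genes whose groups did not overlap, whose brighter group exceeded background on both arrays and whose unadjusted p was under 0.01. Across all probe sets, 4542 (20.0%) were higher on both 4 h arrays than on either untreated array and 4689 (20.6%) lower. AT2G22760 rose most, with levels of 8.70 and 8.91 at 4 h, against 6.43 and 6.06 in untreated cells (difference 2.56, SE 0.23, adjusted p = 0.00563, limma). AT1G71140 had levels of 9.22 and 9.84 at 4 h, against 7.15 and 7.11 in untreated cells (difference 2.40). AT3G55720 had levels of 10.75 and 10.99 at 4 h, against 8.66 and 8.47 in untreated cells (difference 2.31), and AT2G42270 differed by 2.17. These 4 were among 8 genes called also with only the 4 arrays compared and without either 1 h array, and the other 4 were AT3G02555, AT1G18460, YLS5 and AT2G43890.

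Of the 15 rises, 11 were called. AT2G23910 and AT1G62760 lay below background on both untreated arrays. AT2G23910 was at least 2.22-fold higher at 4 h, and AT1G62760 at least 1.39-fold. The bounds set the 4 h mean against the lowest level above background on the untreated arrays. AT5G62210 had levels of 9.43 and 9.22 at 4 h, against 8.07 and 6.88 in untreated cells, with the untreated arrays far apart (adjusted p = 0.0722, limma). AT3G43250 differed by 1.82, with closely spaced replicates in each group (adjusted p = 0.113, limma).

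Of the 15 falls, 6 were called, among them AT2G43890 with levels of 8.09 and 7.51 at 4 h, against 10.43 and 10.22 in untreated cells (difference -2.52, SE 0.28, adjusted p = 0.0135, limma). AT4G38540 had levels of 7.96 and 8.01 at 4 h, against 10.90 and 9.86 in untreated cells (difference -2.40). AT1G15640 lay below background on both 4 h arrays and was at least 2.14-fold lower at 4 h. In many of the falls it is the untreated arrays that differ from each other: the median gap between untreated replicates was 0.40 for the 15 falls and 0.28 for the 15 rises, against 0.35 for all probe sets. Between the 4 h replicates the gaps were 0.22 and 0.20, against 0.23 for all.

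Several falls with a symbol were not called. CCOAMT, a caffeoyl-CoA methyltransferase of the lignin pathway, had levels of 6.36 and 6.47 at 4 h, against 9.19 and 7.57 in untreated cells (difference -1.97, adjusted p = 0.112, limma). PRN, a pirin that binds the G protein alpha subunit, had levels of 7.25 and 7.54 at 4 h, against 8.63 and 9.87 in untreated cells (difference -1.86, adjusted p = 0.0680, limma). The endoglucanase GH9B13 had levels of 7.82 and 6.78 at 4 h, against 8.81 and 9.21 in untreated cells (difference -1.71, adjusted p = 0.0657, limma). The untreated arrays were far apart for CCOAMT and PRN and the 4 h arrays for GH9B13.

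**Figure D3:**
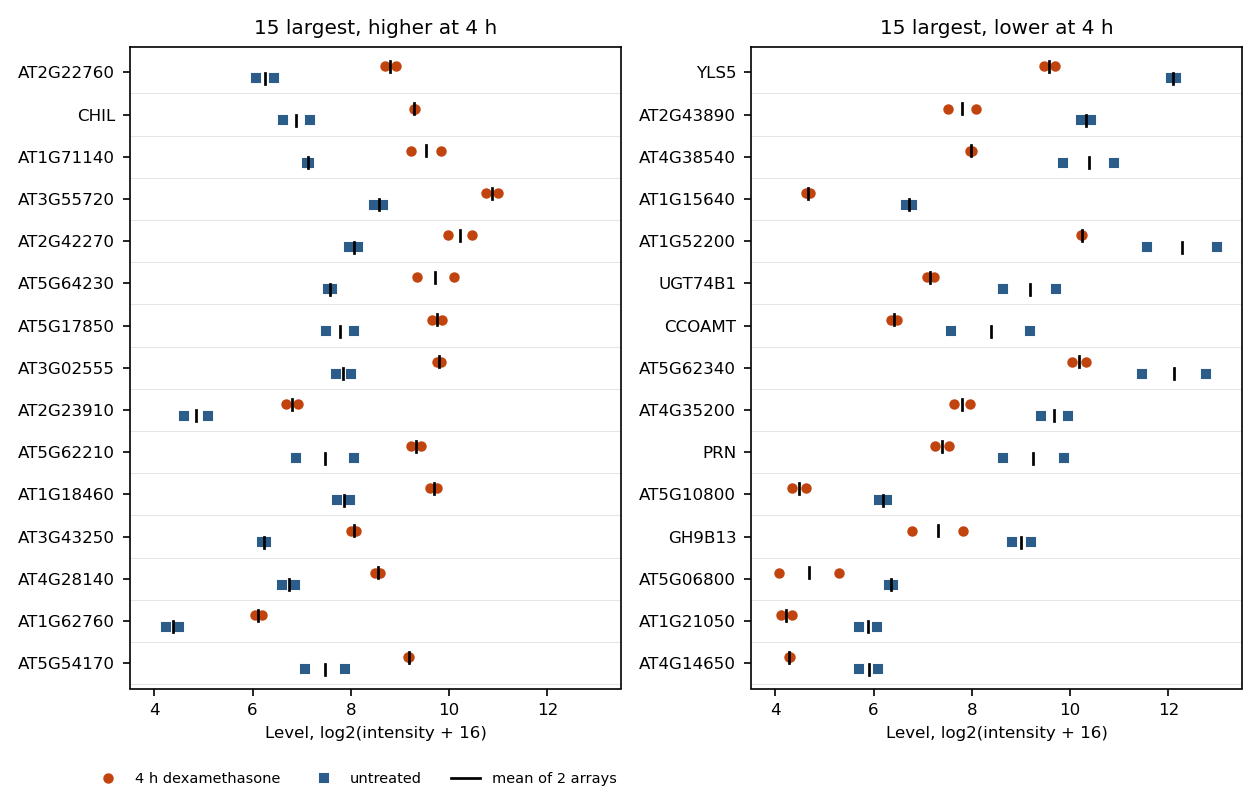
Level on each array, log2(intensity + 16), of the 15 named genes with the largest positive difference (left) and the 15 with the largest negative difference (right), 4 h minus untreated; red circles are 4 h arrays, blue squares untreated arrays and black bars the mean of 2 arrays. The untreated squares lie more than 1 unit apart for AT5G62210 on the left and for AT4G38540, AT1G52200, UGT74B1, CCOAMT, AT5G62340 and PRN on the right.

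Few cytokinin response genes could be followed, since the lists hold only genes with a symbol in the annotation used here. Only 2 type-A regulators were measured, and both lay near background. The type-A regulators are fast cytokinin targets that dampen the signal: RR16 had levels of 4.60 and 5.49 at 4 h, against 5.06 and 4.49 in untreated cells, and exceeded background on none of the 4 arrays. ARR15 had levels of 5.39 and 5.63 at 4 h, against 5.63 and 5.58 in untreated cells, and exceeded background on 1. Their groups overlap, and at this signal a difference was not detectable. Of the 4 other response regulators measured (RR18, RR19, RR22 and RR23), 3 exceeded background on no array. The cytokinin glucosyltransferase UGT76C2 had levels of 6.19 and 5.37 at 4 h, against 6.04 and 6.24 in untreated cells.

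Auxin genes did not move as a block. Of 9 genes that conjugate auxin to amino acids or sugar, 4 were higher and 5 lower at 4 h, with a median difference of -0.08, against -0.01 for all probe sets, and 0 were called. GH3.17, which couples auxin to glutamate, had levels of 11.64 and 11.63 at 4 h, against 10.72 and 10.94 in untreated cells (difference 0.81, unadjusted p = 0.0110, adjusted p = 0.0996, limma). GH3.1 had levels of 9.68 and 9.71 at 4 h, against 8.39 and 9.44 in untreated cells, so that its difference of 0.79 rests on untreated replicate 1. WES1 (GH3.5) had levels of 9.59 and 9.33 at 4 h, against 9.61 and 9.63 in untreated cells. GH3.3 lay below background at 4 h and was at least 1.38-fold lower there, with untreated levels of 6.13 and 6.02. Among 7 Aux/IAA repressors of auxin signalling 3 were higher and 4 lower, with a median of 0.00, and IAA34 differed by 1.5 (unadjusted p = 0.0101) with 1 of 4 arrays above background. Of 6 regulators linked to auxin, HAT2 was called, against 0.541% of all probe sets. The kinase gene WAG2, which acts on auxin carriers, had levels of 10.32 and 10.20 at 4 h, against 10.49 and 10.95 in untreated cells. The auxin synthesis gene YUC2 had levels of 6.75 and 6.65 at 4 h, against 7.15 and 6.05 in untreated cells, which overlap.

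In the flavonoid and anthocyanin list, 1 of 8 genes was called (CHIL), against 0.541% of all probe sets. Of the 8, 4 were higher and 4 lower, and the median was 0.16. UGT78D2, which attaches glucose to flavonols and anthocyanidins, had levels of 8.43 and 8.27 at 4 h, against 7.46 and 7.58 in untreated cells (difference 0.84, adjusted p = 0.139, limma). DFR, a dihydroflavonol reductase, differed by -0.44 (unadjusted p = 0.0993), BAN, an anthocyanidin reductase, by -0.08, and AT5MAT, an anthocyanin malonyltransferase, was below background at 4 h and at least 1.18-fold lower. Of 14 genes of phenylpropanoid and lignin synthesis 5 were higher and 9 lower, with a median of -0.08 and 0 calls. CCOAMT was the single member of these 14 with an unadjusted p under 0.05.

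Glucosinolates are sulphur compounds of the defence of this plant family. Of 9 genes for their synthesis, transport and regulation 3 were higher and 6 lower. UGT74B1 was the only call among the 9, against 0.541% of all probe sets. The aminotransferase BCAT4 differed by -0.21, the transporter GTR1 by 0.09 and the transcription factor MYC4 by -0.20. PYK10, the beta-glucosidase stored in root ER bodies, had levels of 14.16 and 14.00 at 4 h, against 14.34 and 14.45 in untreated cells (difference -0.31, unadjusted p = 0.197). Of 23 ER body and beta-glucosidase genes 13 were higher and 10 lower, with 0 calls.

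Of the 11 tetrapyrrole genes measured, hemb2 and HEMA2 were called, against 0.541% of all probe sets. As with the other lists, that contrast is no test of the list. The list was otherwise mixed: 6 were higher, 5 lower, and the median was 0.07. HEMA3, the paralogue of HEMA2, had levels of 6.04 and 6.33 at 4 h, against 7.18 and 6.18 in untreated cells. HEME2, a uroporphyrinogen decarboxylase, differed by -0.44, and CHLI2, a magnesium chelatase subunit, by -0.75 (unadjusted p = 0.0466). The 4 h level of CHLI2 exceeded background on 1 of 2 arrays.

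Genes that protect cells in cold and drought differed in both directions. Of 18, COR47 was called, against 0.541% of all probe sets, and the median was 0.14. At an unadjusted p under 0.05, 5 were higher (27.8%, against 4.91% of all probe sets) and 4 were lower (22.2%, against 4.17% of all). LTI30, a dehydrin, had levels of 13.20 and 13.27 at 4 h, against 12.25 and 12.15 in untreated cells (difference 1.03, adjusted p = 0.0688, limma). LEA4-5 differed by 1.26 (adjusted p = 0.0854, limma) and AtLEA4-1 by 1.48 (adjusted p = 0.145, limma), both late embryogenesis abundant proteins that stabilise drying cells. DI21, a drought-induced gene, had levels of 6.53 and 6.84 at 4 h, against 7.37 and 8.25 in untreated cells (difference -1.13, adjusted p = 0.205, limma). The replicates of LTI30 and LEA4-5 lay close together, and those of DI21 did not.

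Of 15 calcium sensors and glutamate receptor channels 10 were higher and 5 lower, with a median of 0.17. CML38 was the only call among the 15, against 0.541% of all probe sets. CML42 differed by 0.73 (unadjusted p = 0.0253). CML43 had levels of 7.58 and 7.76 at 4 h, against 9.67 and 8.68 in untreated cells (difference -1.50, adjusted p = 0.0887, limma). Sensors of the same family thus lay on both sides of zero.

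Of 24 defence genes 11 were higher and 13 lower. WRKY22 and OSM34 were the calls among the 24, against 0.541% of all probe sets. At an unadjusted p under 0.05, 1 was higher (4.17% of the list, against 4.91% of all probe sets) and 4 were lower (16.7%, against 4.17% of all). BIK1, a kinase that relays pathogen receptor signals, had levels of 7.82 and 7.82 at 4 h, against 8.72 and 8.26 in untreated cells (difference -0.67, unadjusted p = 0.0358). The ubiquitin ligase gene PUB24 had levels of 9.72 and 9.85 at 4 h, against 9.31 and 8.51 in untreated cells (difference 0.87, unadjusted p = 0.0300).

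Of 9 senescence and cell death genes YLS5 was called, against 0.541% of all probe sets. SAG101, a lipase-like immune protein, had levels of 8.58 and 8.31 at 4 h, against 9.73 and 8.94 in untreated cells (difference -0.89, unadjusted p = 0.0259). The cysteine protease CP1 differed by 1.06 (unadjusted p = 0.0317). SAG29, a sugar carrier that marks old leaves, differed by -0.30, and the vacuolar processing enzymes GAMMA-VPE, BETA-VPE and ALPHA-VPE by 0.25, 0.07 and -0.05. Of 10 autophagy genes 5 were higher and 5 lower, all above background on the 4 arrays, with differences from -0.32 to 0.55 and 0 calls.

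Among the wall-modifying families EXLA2 was the only call. EXLA1, also expansin-like, had levels of 11.72 and 11.76 at 4 h, against 10.92 and 10.79 in untreated cells (difference 0.89, adjusted p = 0.125, limma), and EXLA3, above background on 2 of the 4 arrays, differed by 0.01. Of the 8 beta-expansin and expansin-like genes 4 were higher and 4 lower, with 1 called, against 0.541% of all probe sets. Of 10 alpha-expansins, proteins that loosen the wall for growth, 7 were higher and 3 lower, with a median of 0.29, and 0 were called. Of the 10 xyloglucan-modifying XTH genes 5 were higher and 5 lower. XTH18 had levels of 11.21 and 10.82 at 4 h, against 9.86 and 10.16 in untreated cells (difference 1.00, adjusted p = 0.0853, limma), whereas EXGT-A3 differed by -0.19. Of 15 endoglucanases of family 9, GH9B13 differed by -1.71 and GH9B18, below background in untreated cells, was at least 1.08-fold higher at 4 h. The wall acetylation family TBL had 7 of 22 members higher, a median of -0.10, and no member with an unadjusted p under 0.05.

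Large enzyme families showed single members on either side. Of 50 UDP-glycosyltransferases 27 were higher and 23 lower, with UGT74B1 the only call, against 0.541% of all probe sets. UGT87A2 had levels of 7.99 and 8.32 at 4 h, against 9.50 and 8.70 in untreated cells (difference -0.94, unadjusted p = 0.0278), and UGT85A3, below background in untreated cells, was at least 1.68-fold higher. Of 23 cytochrome P450 genes 11 were higher and 12 lower. CYP71B23 had levels of 8.43 and 8.47 at 4 h, against 10.71 and 8.94 in untreated cells, so that its difference of -1.38 rests mostly on untreated replicate 1. Of 14 glutathione transferases 4 were higher and 10 lower, with GSTU26 at 0.67 and GSTU27 at -0.72, both at an unadjusted p under 0.05. That is 7.14% of the list each way, against 4.91% (higher) and 4.17% (lower) of all probe sets. In leucine breakdown, IVD, the isovaleryl-CoA dehydrogenase, had levels of 6.73 and 6.68 at 4 h, against 7.68 and 7.18 in untreated cells (difference -0.73, unadjusted p = 0.0251). MCCA, a subunit of the carboxylase that acts after IVD, was below background at 4 h and at least 1.84-fold lower.

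Of 17 bZIP transcription factors 8 were higher and 9 lower, and 0 were called. At an unadjusted p under 0.05, 0 were higher, against 4.91% of all probe sets, and 3 were lower (17.6%, against 4.17% of all). BZIP61 had levels of 10.09 and 10.05 at 4 h, against 10.83 and 10.76 in untreated cells (difference -0.73, adjusted p = 0.0941, limma). bZIP19, a regulator of zinc uptake, differed by -0.64, and bZIP44 was below background at 4 h and at least 1.83-fold lower. Of 10 NET genes, whose products bind actin to membranes, 7 were higher and 3 lower, with a median of 0.30. NET2D differed by 0.86 and NET1A by 0.59, whereas NET1B was below background at 4 h and at least 1.23-fold lower.

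Secretion and vesicle traffic, tubulins and actins, SWEET sugar carriers, serine carboxypeptidases, metal homeostasis, and RALF and CLE signal peptides had 0 calls each, with medians between -0.12 and 0.12. Of the 40 secretion genes 34 exceeded background on all 4 arrays, and their differences ran from -0.70 to 0.85. The cell cycle list had a median of -0.24 over 19 genes and 0 members with an unadjusted p under 0.05. Without untreated replicate 2 that median was 0.05 and without 4 h replicate 2 it was 0.03, on the other side of zero. The histone H2B gene HTB1, for example, had levels of 8.19 and 8.22 at 4 h, against 8.53 and 9.13 in untreated cells.

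**Figure D4:**
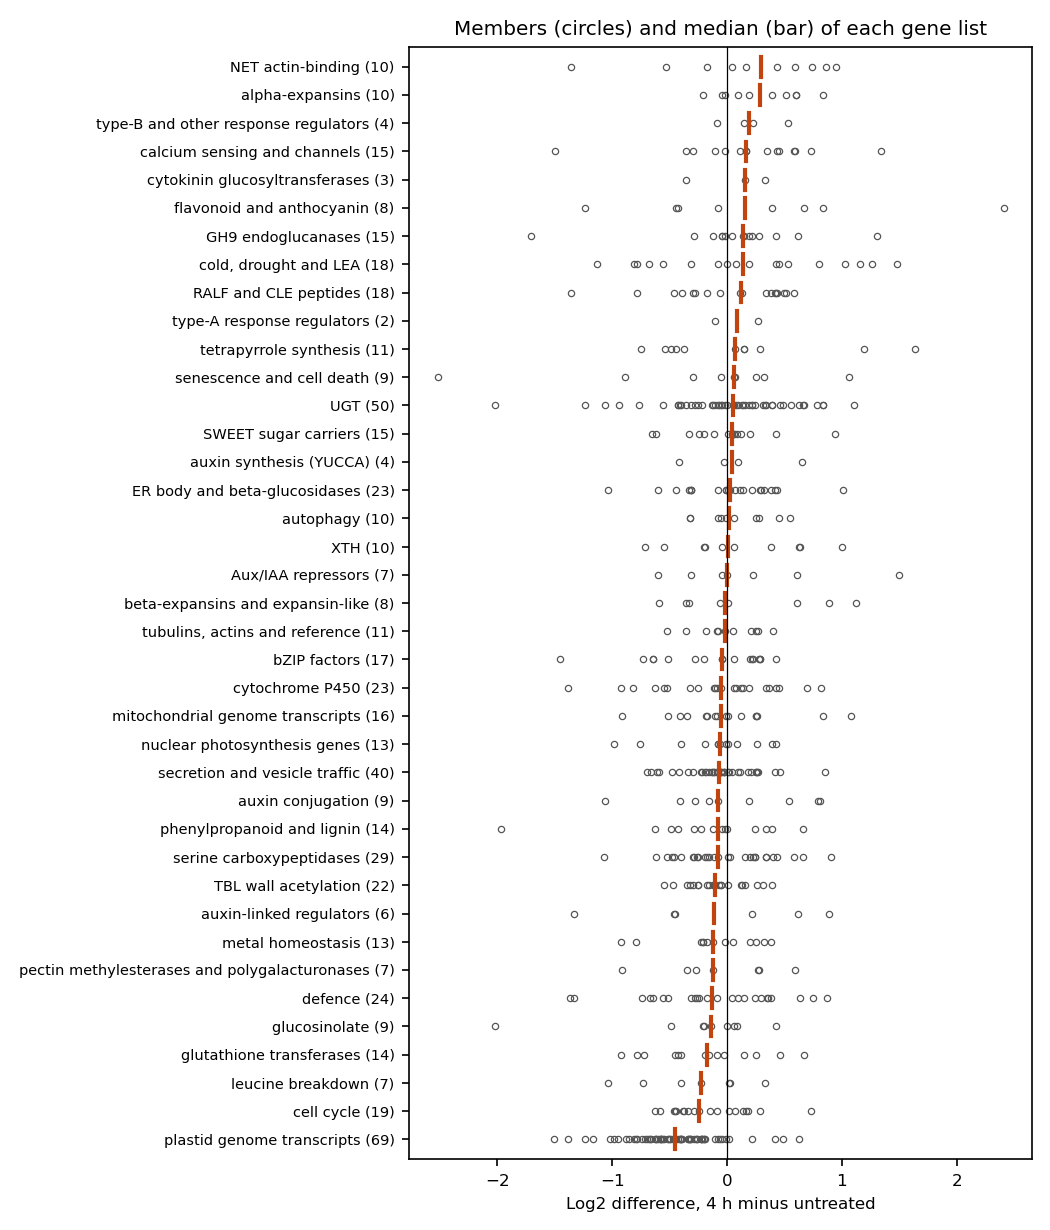
Log2 difference, 4 h minus untreated (horizontal axis), of each member (circles) of the gene lists (rows, with the number of members measured), and the median of each list (red bar). The cell type marker lists are not drawn. The medians drawn lie between -0.24 and 0.30 except for the plastid genome transcripts at -0.45, and single members such as CHIL at 2.41 and YLS5 at -2.52 stand far from their list's median.

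Transcripts of the plastid genome stood lower at 4 h than in untreated cells, but with 1 untreated array rather than both. Of 69, 64 were lower and 5 higher, with a median difference of -0.45, against -0.01 for all probe sets. The median level was 6.68 and 6.90 on the 4 h arrays, against 6.74 and 7.29 on the untreated arrays. Untreated replicate 1 thus lay between the 4 h arrays, and without untreated replicate 2 the median difference was -0.09. In 23 of the 69 (33.3%) both 4 h arrays lay below both untreated arrays, against 20.6% of all probe sets. At an unadjusted p under 0.05, 3 were lower (4.35%), close to the 4.17% of all probe sets, and 0 were higher. 0 were called in either fit.

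Among the plastid genes, rpoA, a subunit of the plastid RNA polymerase, had levels of 7.27 and 7.19 at 4 h, against 7.68 and 9.13 in untreated cells. psbN, a gene of photosystem II assembly, lay below background at 4 h and was at least 1.59-fold lower, and ndhG of the plastid NADH dehydrogenase-like complex was at least 1.4-fold lower. rbcL, the large subunit of Rubisco, differed by -0.32, and its groups overlapped. Of 13 nuclear genes of photosynthesis 5 were higher and 8 lower, with a median of -0.06. Of 16 mitochondrial transcripts 7 were higher and 9 lower, with a median of -0.05. The control for 25S ribosomal RNA read 6422 and 6680 at 4 h, against 8221 and 9688 in untreated cells, before log transformation. The ratio of 3′ to 5′ actin probe sets, which rises as RNA breaks down, was 3.18 and 3.46 at 4 h, against 2.73 and 5.12 in untreated cells, highest in untreated replicate 2. The same ratio for GAPDH was 3.15 and 4.32 at 4 h, against 3.11 and 3.41 in untreated cells, highest in 4 h replicate 2. The part of these controls in the plastid values was not tested.

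**Figure D5:**
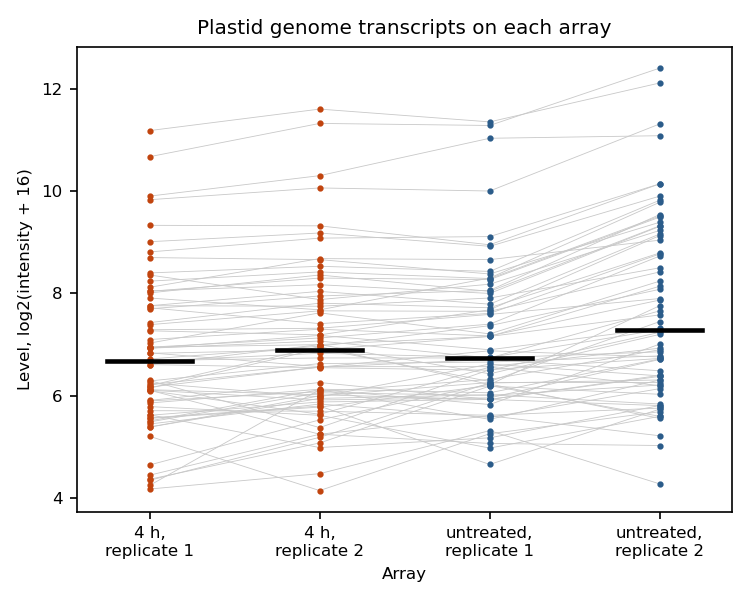
Level, log2(intensity + 16), of 69 plastid genome transcripts on the 2 arrays at 4 h (red) and the 2 untreated arrays (blue); thin lines join the values of a gene and black bars are medians. The medians of 6.68, 6.90, 6.74 and 7.29 show untreated replicate 2 above the other arrays.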

How the data were processed

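The deposited table holds 1 linear intensity per probe set and array. The software that summarised the probes is not given in the sources used here. Each column had a trimmed mean (2% at each end) of 250.03, so the authors' values had been scaled alike. From there log2(intensity + 16) was taken and the 6 columns were quantile normalized, since their medians spanned 0.215, above the limit of 0.1. The setting with only the 4 arrays compared kept these normalized values. A group-mean model over the 6 arrays was fitted by limma (version 3.58.1, under R 4.3.3; 3 residual degrees of freedom), two-sided, with Benjamini-Hochberg adjustment over 22746 probe sets and a threshold of 0.05. The moderated test was tried with 1 prior variance, the main result, and with one that follows the signal level. The scripts were tested on simulated data. The number of arrays limits the precision.

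Genes were named from the platform annotation and a RefSeq table of assembly TAIR10.1: 13513 probe sets carry 1 gene, 503 several and 8730 are not listed. A gene with several probe sets is represented by the brightest. Named were every probe set past the threshold, the 15 largest differences each way under the criteria given in the text, the genes called with the signal-dependent prior (largest by value), up to 5 members of each of 45 gene lists above background in at least 1 group, the cell type markers, GH3.5, GH3.17 and the type-A regulators. Other genes were singled out after their values were seen. The members and lists were chosen with earlier results of these data known, and the lists hold only genes with a symbol.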

Additional observations from a re-analysis of the deposited data

How the results depend on the processing

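The count of 1 under a single prior variance was 0 with a pseudocount of 1, 108 with a pseudocount of 64 (103 of them among the 123), 8 with only probe sets above background on 2 or more arrays, 123 with the prior that follows the signal level, 0 with only the 4 arrays compared and 0 without any 1 array. The counts at an unadjusted p under 0.05 ran from 1197 to 2633 over the arrays left out. Without normalization, with median-centred columns, a robust prior or array weights the adjusted count stayed at 1. The log2 difference of 253534_at was -4.99 with a pseudocount of 1 (adjusted p = 0.254, limma) and -4.69 with the 4 arrays compared (adjusted p = 0.203, limma), and it ran from -4.98 to -4.39 over the arrays left out. The cause was not tested. Leaving out arrays also leaves fewer degrees of freedom, and that part was not tested separately.

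The count of 123 was 204 with the background filter, 18 with the 4 arrays compared and 196 with array weights, and it ran from 1 to 365 over the arrays left out. These settings were added after seeing the data. Without untreated replicate 2, 49.9% of the calls were higher at 4 h, against 71.5% of the 123. With the replicate numbers of the titles as a block (replicate block), the single-prior count was 0, with -4.69 for 253534_at (adjusted p = 0.0532, limma), and the signal-dependent count 184, with all 123 among them. Same-numbered 4 h and untreated arrays deviated together at r = -0.019 across probe sets, and same-numbered 1 h and untreated arrays at 0.117. With 2 replicates a group this cannot settle whether the numbers pair the arrays, and the labels do not say.

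For 91 named genes under 16 settings, 0 of 1456 comparisons were scored as reversed. That count does not show that every named gene kept its sign. Where the groups overlap near background, as in the type-A regulators, leaving out an array can turn the sign of the difference. Of the 1456 comparisons, 58 passed the threshold that had not, and 9, all of 253534_at, no longer did. Of 402 list medians, 71 moved by more than the replicate spread. The dimmest class of probe sets, with the largest spread, gave 0 calls, so no single change there passed the adjusted threshold. At an unadjusted p under 0.05 (limma, single prior variance) that class held 673 probe sets, against 379 expected from the threshold alone.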

Other observations

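The called and largest named genes form 73 pairs with a measured neighbour in the RefSeq annotation (assembly TAIR10.1). In 42 pairs both genes had the same sign. In 13 of the 73 the neighbour had an unadjusted p under 0.05, against 9.08% of all probe sets. Of these 13, 9 had the same sign and 4 the opposite one. The pairs named here were chosen after their values were seen. AT4G35200 and AT4G35210 both fell, by 1.88 and 1.47 on the log2 scale. AT4G28140 rose by 1.81, and its neighbour AT4G28150, above background on 2 of the 4 arrays, differed by 1.67 (unadjusted p = 0.000256). CML38 rose by 1.34 and its neighbour AT1G76640 differed by 1.1 (unadjusted p = 0.00492). AT4G24780 rose by 1.46 and AT4G24790 differed by 1.14 (unadjusted p = 0.00234). Opposite signs also occurred: AT5G62350 rose by 1.05 beside AT5G62340, which differed by -1.94 (unadjusted p = 0.00343). AT2G22760, the largest named rise, lies beside NAI1, a regulator of ER body genes, which differed by 0.07. Whether near-identical neighbours share probes was not tested.

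Among the called probe sets that are not listed with a gene, 251827_at had the largest rise, with levels of 10.36 and 10.01 at 4 h, against 7.33 and 6.49 in untreated cells (difference 3.28, adjusted p = 0.0128 with the signal-dependent prior, limma). In that fit the adjusted p was smaller for 252123_at (difference 2.7) and 253060_at (2.43), both 0.00131, and for 248625_at (3.05) and 250533_at (2.8), both 0.00424 (limma). With a single prior variance and the background filter, each of these had an adjusted p of 0.0305 (limma). 251827_at was not among the 8 called there.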
